A study of Mus musculus with 12 samples.

Results

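The saline baseline of the P15 mouse brainstem was taken from 6 of the 12 RNA-seq libraries of a study of neonatal morphine exposure. All libraries labelled saline were used, the 6 morphine libraries were not, and no comparison between treatments was made. The deposited count table lists 55418 genes, and each of them was examined. The mice were outbred CFW (Swiss Webster) pups, 3 males numbered 1 to 3 and 3 females numbered 4 to 6. They received saline by subcutaneous injection 2 times daily from P1 to P14, went through the study's behavioral tests, and were killed on P15, so they were handled and injected controls rather than naive mice. Each mouse gave 1 poly-A library. Saline and morphine pups were raised in the same litters, and the labels used here do not name the dam. The tissue is labelled brainstem, and the study describes it as medulla plus pons, whereas the deposited extraction text speaks of spinal cords. That label was therefore compared with regional marker genes below. Library totals ran from 32887929 to 48097947 counts, with the highest in saline male 2. Levels within a gene are given as CPM, counts scaled to library size with TMM factors, and levels between genes as TPM, for which counts are also divided by exon length. Values are mean ± SD over the 6 mice unless the lowest, median, and highest mouse are given.

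The medulla and pons hold the nuclei that generate breathing, set heart rate and blood pressure, and relay taste, touch, and pain. Their neurons use glutamate, GABA, and, to a degree unlike the forebrain, glycine as fast transmitters, and they include the noradrenergic and serotonergic cell groups that project through the brain and spinal cord. The hindbrain and spinal cord keep the Hox code of the embryo, in which paralog groups of higher number are expressed from ever more caudal levels. The second postnatal week is also a time of rapid myelination in the mouse hindbrain.

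Libraries differed along GC content before any gene was considered alone. The first principal component of the log2 levels of 18122 genes that passed the filter on low counts held 62.7% of the variance, and it placed the mice in the order male 2, male 1, female 4, female 5, female 6, and male 3. Across genes, the loading on this component followed transcript GC content (Spearman's ρ = 0.79) far more than log2 exon length (ρ = -0.13). Genes were split into 5 groups of equal size by GC content. The most GC-rich group (55.1 to 78.3%) had a median deviation from the 6-mouse median of 0.80 on the log2 scale in male 2 and 0.66 in male 1, but of -0.52 in male 3. The most GC-poor group (28.3 to 43.4%) deviated the other way, by a median of -0.28 in male 2, -0.19 in male 1, and 0.38 in male 3. The 3 females lay between, from 0.06 in female 4 to -0.26 in female 6 for the most GC-rich group. What set this gradient was not tested. Males 1 and 2 and male 3 were its ends, so it cut across the sexes. Levels were therefore also computed with loess offsets for GC content and length, a step chosen after the gradient was seen. The offsets were fitted to the deviations of these same 6 libraries, so a smaller spread along GC content follows in part from the fit itself. With these offsets, the first component held 41.7% of the variance. Of the 289 list members with a mean of 1 CPM or more, 200 had a lower CV after the offsets and 89 a higher one, and in 75 the CV was at most 50% of that as counted. Levels below are as counted unless the offsets are named.

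**Figure D1:**
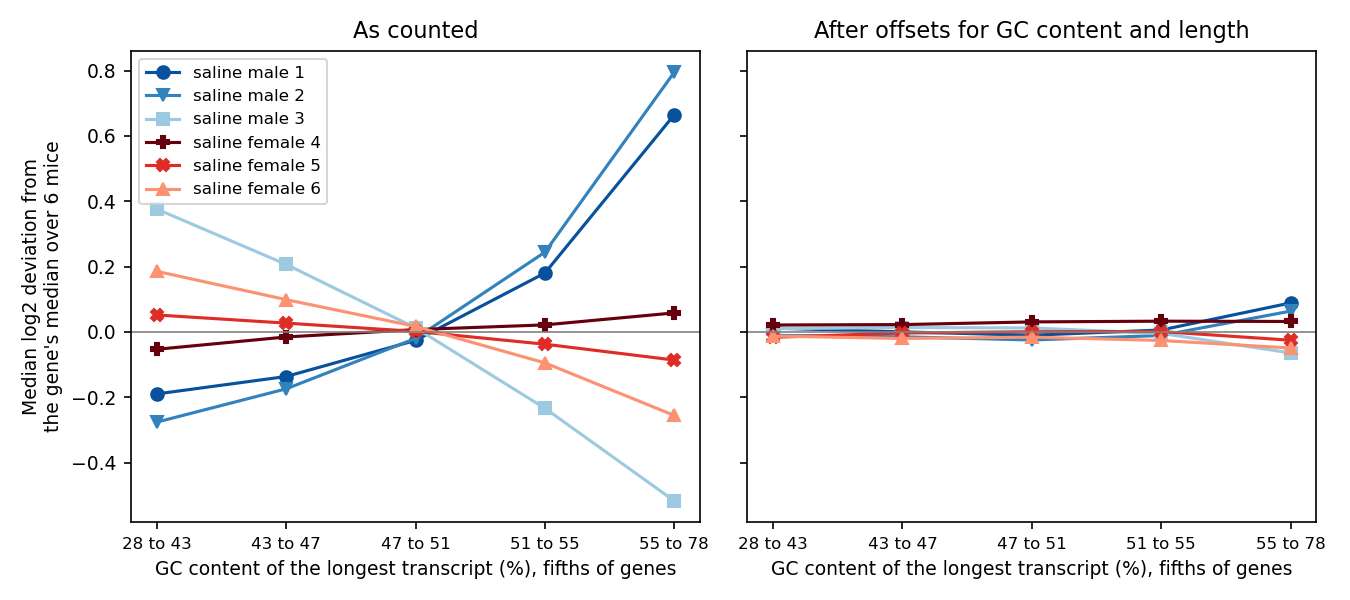
Median log2 deviation of genes from the median of the 6 saline mice (y axis), in 5 groups of transcript GC content from lowest to highest (x axis), with 1 line per mouse, as counted (left) and after offsets for GC content and length (right). As counted, the most GC-rich group runs from -0.52 in saline male 3 to 0.80 in saline male 2. After the offsets the lines lie close to 0, which follows from fitting the offsets to these same deviations.

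The coding starts of 6 genes at the ends of the difference between males 2 and 3 are shown, because the gradient between libraries followed base composition. A set of 7176 autosomal protein-coding genes with at least 20 CPM was compared, and it did not take in every autosome. Within this set, *Rpl36*, *Enho*, and *Uqcr11* had the largest excess of male 2 over male 3, and *Clgn*, *Mgat4c*, and *Nexn* the largest deficit. These genes were chosen after their values were seen. *Rpl36*, a protein of the large ribosomal subunit, lies on the + strand at chr17:56613416-56614243 and was at 59.6 CPM in male 2 and 3.75 CPM in male 3. *Enho*, the gene of the secreted peptide adropin, lies on the - strand at chr4:41638144-41640324 and was at 106 and 9.06 CPM in the same mice. *Uqcr11*, a subunit of respiratory complex III, lies on the - strand at chr10:80402997-80406830 and was at 99.2 and 9.43 CPM. In the opposite direction, *Clgn*, a chaperone of the endoplasmic reticulum, lies on the + strand at chr8:83389867-83428552 and was at 30.6 CPM in male 2 and 73.7 CPM in male 3. *Mgat4c*, a glycosyltransferase gene, lies on the + strand at chr10:101681487-102391469 and was at 15.2 and 35.6 CPM. *Nexn*, an actin-binding protein, lies on the - strand at chr3:152236982-152266350 and was at 14.1 and 32.0 CPM. The first 120 coding bases of each, from the GENCODE M21 transcripts on GRCm38, read as follows from 5′ to 3′ on the coding strand, with every G and C in capitals.
Rpl36: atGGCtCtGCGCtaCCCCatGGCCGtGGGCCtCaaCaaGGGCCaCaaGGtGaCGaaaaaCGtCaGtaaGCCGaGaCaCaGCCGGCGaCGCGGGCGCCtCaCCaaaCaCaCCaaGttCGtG
Enho: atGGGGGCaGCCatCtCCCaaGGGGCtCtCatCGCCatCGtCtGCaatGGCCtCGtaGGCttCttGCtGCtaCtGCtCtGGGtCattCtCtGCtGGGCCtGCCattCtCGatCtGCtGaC
Uqcr11: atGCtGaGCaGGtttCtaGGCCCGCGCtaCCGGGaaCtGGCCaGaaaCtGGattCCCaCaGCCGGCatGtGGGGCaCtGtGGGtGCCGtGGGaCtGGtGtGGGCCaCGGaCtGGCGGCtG
Clgn: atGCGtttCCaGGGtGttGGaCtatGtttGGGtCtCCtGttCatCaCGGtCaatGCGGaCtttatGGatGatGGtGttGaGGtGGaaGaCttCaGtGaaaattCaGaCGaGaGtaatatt
Mgat4c: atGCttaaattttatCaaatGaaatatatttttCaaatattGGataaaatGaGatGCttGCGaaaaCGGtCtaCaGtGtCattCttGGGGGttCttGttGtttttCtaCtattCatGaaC
Nexn: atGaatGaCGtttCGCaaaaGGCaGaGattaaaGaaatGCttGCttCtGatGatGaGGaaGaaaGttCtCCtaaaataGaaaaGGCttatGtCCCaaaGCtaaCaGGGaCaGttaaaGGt
G and C made up 61.7%, 59.2%, and 65.8% of these bases in *Rpl36*, *Enho*, and *Uqcr11*, and 44.2%, 30%, and 38.3% in *Clgn*, *Mgat4c*, and *Nexn*. Over the whole coding sequence, the GC content of the first 3 genes was 61.6%, 61.4%, and 60.7%, and that of the other 3 was 45.4%, 37.0%, and 39.9%. The coding sequences of the first 3 were also short, at 315, 228, and 168 bases, against 1833, 1434, and 1821 bases. Part of the difference in these genes, which were picked as extremes, remained when GC content and length were offset. After the offsets, *Rpl36* was at 37.5 CPM in male 2 and 5.40 CPM in male 3, *Enho* at 57.7 and 14.3 CPM, and *Uqcr11* at 63.6 and 13.5 CPM. The other 3 also kept their direction, with *Clgn* at 35.3 and 62.7 CPM, *Mgat4c* at 18.5 and 25.8 CPM, and *Nexn* at 17.4 and 24.7 CPM.

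A total of 34908 genes had a count in at least 1 of the 6 mice, and 20510 were at 0 in all. Of the 13978 genes at 1 CPM or more in every mouse, 12996 were protein coding, 270 were lincRNA genes, and 185 were antisense genes. Counts were concentrated: 70 genes averaged 1000 CPM or more, and 945 genes held 50% of all counts. Mitochondrially encoded genes took 6.40 ± 1.00% of counts, from 5.15% in male 2 to 7.90% in male 3.

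Myelin and mitochondrial transcripts led the table. Of the 20 genes with the highest mean CPM, 8 were mitochondrially encoded and 5 belonged to the list of 11 mature oligodendrocyte genes. *mt-Co1*, a core subunit of cytochrome c oxidase, ranged from 18874 through a median of 22183 to 28129 CPM. *Mbp*, the myelin basic protein that holds the cytoplasmic faces of the sheath together, ranged from 8318 in male 3 through a median of 14091 to 26931 CPM in male 2. Males 1 and 2 were far above the other 4 mice, and the CV of *Mbp* was 50.3% as counted and 45.7% after the offsets for GC content and length. *Mobp*, another myelin protein gene, averaged 4588 ± 556 CPM, and *Cnp*, the myelin nucleotide phosphodiesterase, 2394 ± 687 CPM. *Scd2*, a fatty acid desaturase, was among the steadiest abundant genes at 4403 ± 144 CPM. The glutamate transporter gene *Slc1a2* averaged 3607 ± 455 CPM and *Sparcl1*, a matricellular protein of astrocytes and neurons, 3558 ± 172 CPM. The first neuronal gene of the ranking was *Snap25*, a component of the vesicle fusion machinery, at 2140 ± 233 CPM. *Meg3*, an imprinted long noncoding RNA, ranged from 1942 in female 4 through a median of 2801 to 4542 CPM in female 6.

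Per length, 15 of the same 20 genes remained in the first 20, and 10 of the 20 were mitochondrially encoded. *mt-Co1* averaged 55238 ± 8559 TPM, *Mbp* 7228 ± 3419 TPM, and *Sparcl1* 4624 ± 247 TPM. *Bc1*, a short neuronal noncoding RNA that enters the ranking only through its length, averaged 3753 ± 1414 TPM. Levels of *mt-Nd6* and *mt-Tp*, which lie on the opposite strand of the mitochondrial genome, were uncertain because the strand setting of the counting is not given in the sources used here.

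Glutamate neurons of the brainstem were marked mainly by *Slc17a6*, the vesicular glutamate transporter VGLUT2. It ranged from 269.6 in male 2 through a median of 339 to 472 CPM in male 3, and *Slc17a7*, the VGLUT1 gene, ranged the other way, from 56.6 in male 3 through 78.3 to 134 CPM in male 2. Per length, *Slc17a6* exceeded *Slc17a7* by 2.06 ± 0.82 on the log2 scale, with a range from 1.00 to 3.06 and the same direction in 6 of 6 mice. The offsets for GC content and length brought the CV of *Slc17a6* from 19.7% to 7.52% and that of *Slc17a7* from 41.0% to 18.1%. *Slc17a8*, the third vesicular glutamate transporter, averaged 5.16 ± 1.31 TPM.

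The marker gene of glycinergic neurons stood close to *Slc17a6* in transcript level per length. *Slc6a5*, the neuronal glycine transporter GlyT2 that marks glycinergic neurons, ranged from 469 in male 2 through a median of 546 to 612 CPM in female 4. Per length, it averaged 288 ± 41.5 TPM against 249 ± 50.6 TPM for *Slc17a6*, and the log2 ratio of *Slc6a5* to *Slc17a6* was 0.22 ± 0.20, with *Slc6a5* higher in 5 of 6 mice and lower in male 3. The receptor subunit gene *Glrb* averaged 366 ± 62.8 TPM. Among the α subunits, *Glra1*, the adult form, averaged 88.2 ± 17.3 TPM and *Glra2*, the form of immature neurons, 36.4 ± 8.57 TPM, and *Glra1* was higher in 6 of 6 mice. *Glra3* followed at 16.5 ± 3.34 TPM. *Slc6a9*, the mainly glial glycine transporter, averaged 68.4 ± 29.2 TPM and overlapped both *Glra1* and *Glra2* in range.

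For GABA, *Gad2* averaged 152 ± 28.9 TPM and *Gad1* 98.5 ± 12.0 TPM, and *Gad2*, 1 of the 2 glutamate decarboxylase genes, was higher in 6 of 6 mice by a log2 ratio of 0.61 ± 0.14. The astrocytic GABA transporter *Slc6a11* averaged 533 ± 99.5 TPM. *Slc32a1*, the vesicular transporter shared by GABA and glycine neurons, ranged from 30.3 in male 3 through 47.5 to 105 CPM in male 2. Its CV was 53.3% as counted and 8.69% after the offsets. The chloride cotransporters, whose balance sets whether GABA and glycine inhibit, were not ordered. *Slc12a5*, the chloride exporter KCC2, averaged 147 ± 43.5 TPM and *Slc12a2*, the importer NKCC1 that glia also express, 141 ± 27.6 TPM. The exporter was higher in 3 of 6 mice, with a mean log2 ratio of 0.04 ± 0.69, and the CVs of both genes fell below 5% after the offsets, to 4.60% and 4.19%.

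**Figure D2:**
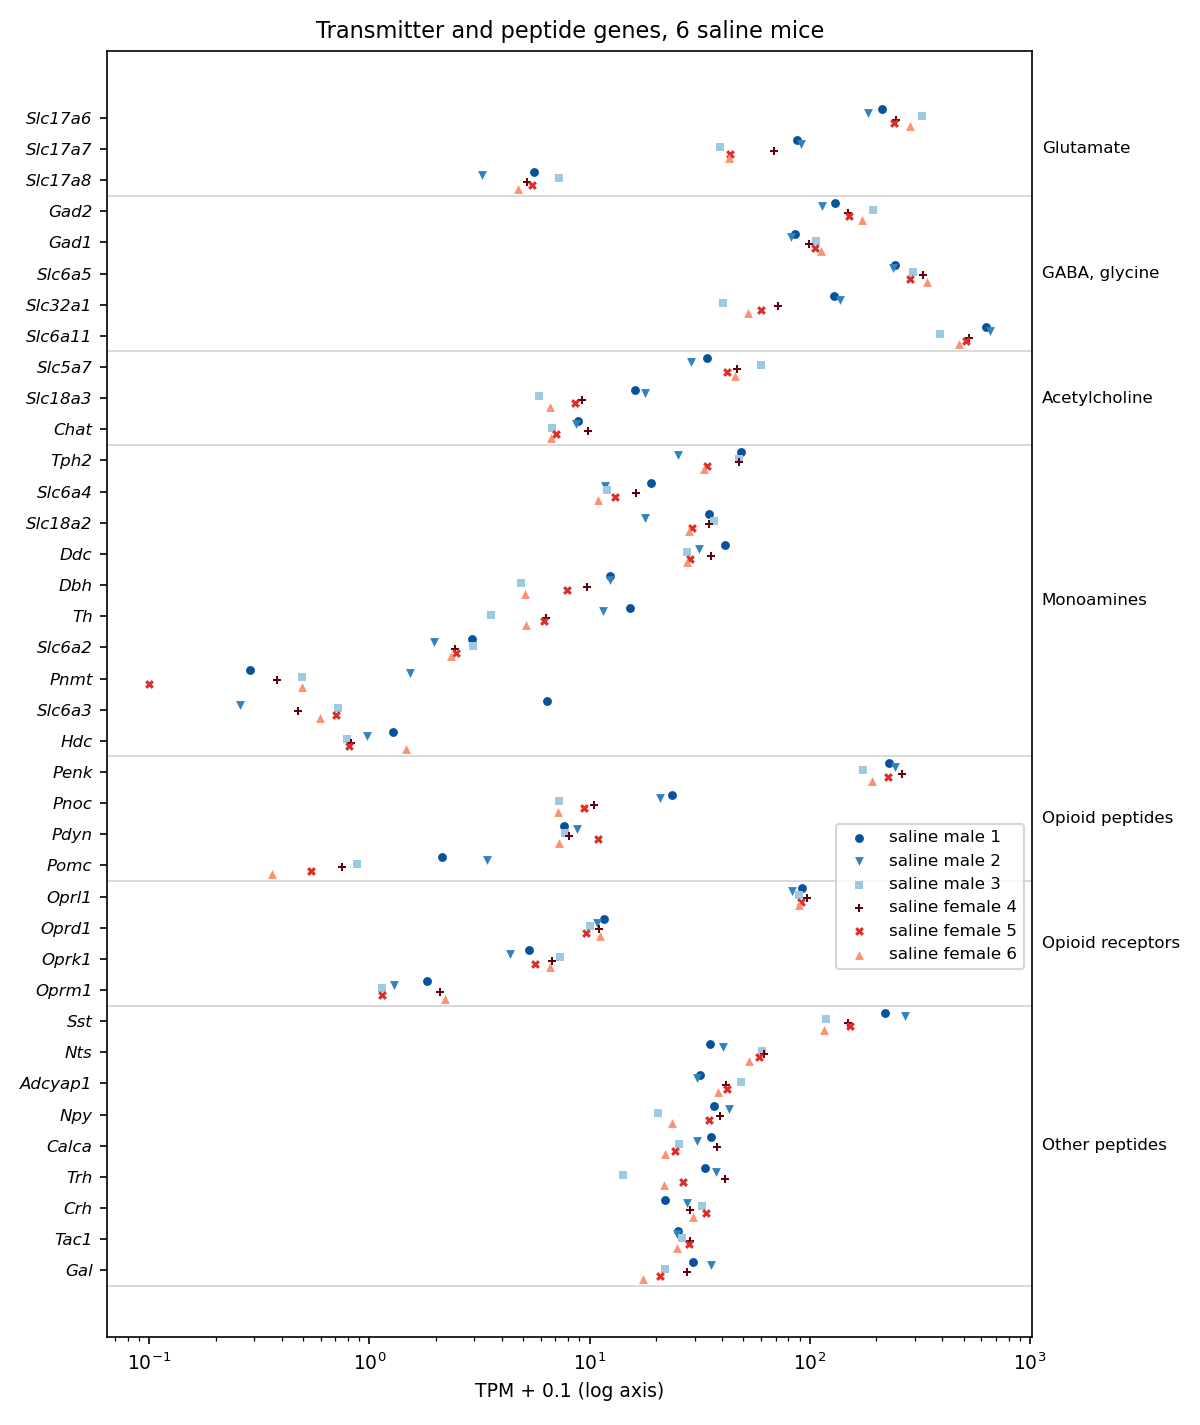
Levels of transmitter marker genes in the 6 saline mice as TPM plus 0.1 on a log axis, with 1 dot per mouse. *Slc17a6* and *Slc6a5* overlap, and *Oprl1* stands apart from the other opioid receptor genes.

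Cholinergic genes differed widely in level. *Ache*, the enzyme that breaks down acetylcholine and that is not limited to cholinergic neurons, led the 4 genes at 88.4 ± 39.3 TPM. *Chat*, the acetylcholine synthesis enzyme, ranged from 7.64 in female 6 through 9.75 to 11.9 CPM in female 4. *Slc5a7*, the choline transporter, averaged 42.8 ± 10.9 TPM and *Chat* 7.89 ± 1.32 TPM. *Ache* was highest in male 2 and lowest in male 3, *Slc5a7* the other way round, and their CVs went from 47.7% to 8.92% and from 25.6% to 12.9% with the offsets. The CV of the list's sum went from 23.6% to 7.22%. Of the motor neuron genes, *Prph*, a peripheral neurofilament, averaged 37.5 ± 17.1 TPM and was highest in males 1 and 2, with a CV of 48.6% as counted and 13.7% after the offsets. The CV of the motor neuron sum went from 29.7% to 6.72%. *Mnx1*, a marker of spinal somatic motor neurons, ranged from 0.0293 to 0.325 CPM.

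Serotonergic transcripts exceeded noradrenergic ones. *Tph2*, the serotonin synthesis enzyme of neurons, ranged from 19.8 in male 2 through 30.2 to 38.0 CPM in male 1, and *Slc6a4*, the serotonin transporter, from 12.1 through 14.7 to 23.3 CPM. *Th*, the rate-limiting enzyme of catecholamine synthesis, ranged from 2.20 in male 3 through 3.74 to 9.78 CPM in male 1, and *Dbh*, which makes noradrenaline, from 3.31 in female 6 through 6.04 to 9.01 CPM in male 2. Per length, *Tph2* exceeded *Th* by 2.45 ± 0.94 on the log2 scale in 6 of 6 mice. *Slc6a2*, the noradrenaline transporter, averaged 2.42 ± 0.371 TPM and *Pnmt*, the adrenaline enzyme, 0.447 ± 0.502 TPM. *Slc6a3*, the dopamine transporter of midbrain neurons, was at 5.89 CPM in male 1 and between 0.150 and 0.580 CPM in the other 5 mice. The other 3 genes of the midbrain dopamine list differed in which mouse was highest. *Pitx3* was at 0.117 CPM in male 1 and at or under 0.0214 CPM elsewhere, but *Nr4a2* was at 5.59 CPM in male 1, within the range of 4.56 to 6.99 CPM, and *Aldh1a1* was lowest in male 1, at 109.8 CPM. The sum of the list was 121 CPM in male 1, next to a median of 123 CPM. The part that midbrain tissue had in these values was not tested.

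Among opioid genes, the peptide precursor *Penk* and the nociceptin receptor *Oprl1* dominated. *Penk*, the enkephalin precursor, ranged from 76.5 in male 3 through 97.8 to 112 CPM in female 4 and averaged 221 ± 33.1 TPM. The dynorphin precursor *Pdyn* averaged 8.29 ± 1.34 TPM, a log2 ratio of 4.74 ± 0.25 of *Penk* over *Pdyn* in 6 of 6 mice. *Pnoc*, the nociceptin precursor, was at 13.9 and 12.3 CPM in males 1 and 2 and between 3.76 and 5.81 CPM in the other 4 mice, and its CV was 58.8% as counted and 50.4% after the offsets. *Oprl1* averaged 90.2 ± 4.62 TPM with a CV of 5.53%, followed by *Oprd1* (δ receptor) at 10.6 ± 0.758 TPM, *Oprk1* (κ receptor) at 5.90 ± 1.11 TPM, and *Oprm1* (μ receptor, the main target of morphine) at 1.52 ± 0.480 TPM. That order held in 6 of 6 mice with no overlap between neighbours. *Oprm1* ranged from 2.12 in female 5 through 3.19 to 4.17 CPM in female 4, and since TPM was computed from the merged length of all exons, a long 3′ region lowers it.

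The 22 other neuropeptide precursors were led by *Sst*, somatostatin, at 171 ± 61.3 TPM. *Sst* was followed by *Nts* (neurotensin) at 51.5 ± 11.2 TPM, *Cbln1* (a synaptic organizer) at 42.2 ± 5.38 TPM, *Adcyap1* (PACAP) at 38.8 ± 6.77 TPM, and *Npy* at 32.9 ± 8.91 TPM. *Calca* (CGRP), *Trh*, *Crh*, *Tac1* (substance P), and *Gal* averaged between 25.4 and 29.3 TPM, and their ranges over mice overlapped. *Gcg*, the GLP-1 precursor of neurons of the nucleus of the solitary tract, averaged 1.02 ± 0.232 CPM, and *Ucn*, of the Edinger-Westphal nucleus of the midbrain, was between 0 and 0.0305 CPM. A total of 16 of the 22 were at 1 CPM or more in every mouse.

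Subunits of GABA-A receptors showed the gradient plainly. In the GABA-A family, 12 of 15 subunits had their highest level in male 3 and 12 had their lowest in male 2. The median GC content of these genes was 42.2%, within the range of the most GC-poor group of all genes. That group as a whole had a median deviation of 0.38 in male 3 and -0.28 in male 2, so the direction was not particular to these receptors. Their summed level ranged from 996 CPM in male 2 through 1266 to 1707 CPM in male 3, with a CV of 19.1% that was 5.82% after the offsets. Per length, *Gabra3* led at 128 ± 26.6 TPM and *Gabra2* averaged 103 ± 18.8 TPM. *Gabra5*, an α subunit of extrasynaptic receptors, averaged 58.2 ± 8.68 TPM. *Gabrd*, an extrasynaptic subunit, was low at 2.23 ± 0.845 TPM.

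Of the AMPA receptor subunits, *Gria4* averaged 167 ± 28.4 TPM, and *Gria2*, the subunit that makes receptors impermeable to calcium, 82.5 ± 23.9 TPM. The log2 ratio of *Gria2* to *Gria4* was -1.05 ± 0.20 with the same sign in 6 of 6 mice, but it was 0.25 ± 0.20 when length was not divided out, so the order depends on the exon lengths used. *Gria1* (80.7 ± 9.68 TPM) was not separated from *Gria2*. Of the NMDA receptor subunits, *Grin1*, the obligatory one, averaged 33.6 ± 11.6 TPM and *Grin3a*, which is most prominent early in life, 31.2 ± 5.12 TPM. *Grin2a*, the subunit of mature synapses, averaged 14.9 ± 3.12 TPM and *Grin2b*, the juvenile one, 12.3 ± 3.09 TPM, and their log2 ratio of 0.28 ± 0.11 was -0.19 ± 0.11 without length.

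*Htr2c* led the 14 serotonin receptor genes at 103 ± 25.3 TPM, followed by *Htr7* at 33.8 ± 5.83 TPM, and the log2 ratio was 1.58 ± 0.17 in 6 of 6 mice. *Htr1a*, the autoreceptor of raphe neurons, was steady at 20.6 ± 1.34 CPM, between 19.1 and 22.7 CPM. *Adra2a*, the receptor through which clonidine acts, led the adrenergic receptors at 29.2 ± 2.13 TPM and exceeded *Adra1a* by 2.14 ± 0.15 on the log2 scale in 6 of 6 mice. *Chrm2* led the muscarinic receptors at 55.1 ± 12.4 TPM, 2.04 ± 0.30 above *Chrm3* on the log2 scale, whereas *Chrm1*, typical of cortex, averaged 0.844 ± 0.122 TPM. *Chrna4* and *Chrnb2*, which form the main brain nicotinic receptor, averaged 48.8 ± 7.73 and 29.5 ± 2.74 TPM, and *Chrna9* and *Chrna10*, the subunits of hair cells, had 3 counts or fewer in every mouse.

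Most Hox genes of paralog groups 1 to 5 were present in every mouse, and those of groups 9 to 13 were mostly at or near 0. Of the 15 Hox genes of paralog groups 1 to 5, 14 were at 1 CPM or more in every mouse, led by *Hoxa5* at 75.6 ± 13.0 TPM, *Hoxb5* at 43.8 ± 6.56 TPM, and *Hoxc4* at 37.0 ± 7.54 TPM. The one exception, *Hoxb1*, stayed at or under 0.0856 CPM. The 8 genes of groups 6 to 8 were mixed. *Hoxb8* reached 36.1 ± 10.6 TPM, whereas *Hoxc8* had a single count in each of male 3 and female 4 and none elsewhere. Of the 16 genes of groups 9 to 13, 10 were at 0 counts in all 6 mice and 13 had 3 counts or fewer in every mouse, an amount that 3 counts put at 0.0624 to 0.0912 CPM per library. *Hoxb9*, the highest of them in any mouse, ranged from 0.0879 in male 1 through 0.339 to 1.24 CPM in female 5.

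Genes of the more caudal groups differed between mice. The summed level of groups 6 to 8 ranged from 33.1 in male 1 through 41.6 to 62.1 CPM in female 5. Female 5 was highest for 5 of the 8 genes, and how often it was highest among all genes was not computed. Groups 9 to 13, most of whose genes had 3 counts or fewer in every mouse, summed to between 0.117 CPM in male 1 and 1.68 CPM in female 5. *Hoxd8* was at 0.732 CPM in male 1, 7.29 CPM in female 5, and 6.54 CPM in female 4, and between 2.05 and 2.75 CPM in the other 3 mice. The CV of the groups 6 to 8 sum was 25.3% as counted and 29.8% after the offsets. The part that the level of dissection had in these values was not tested.

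**Figure D3:**
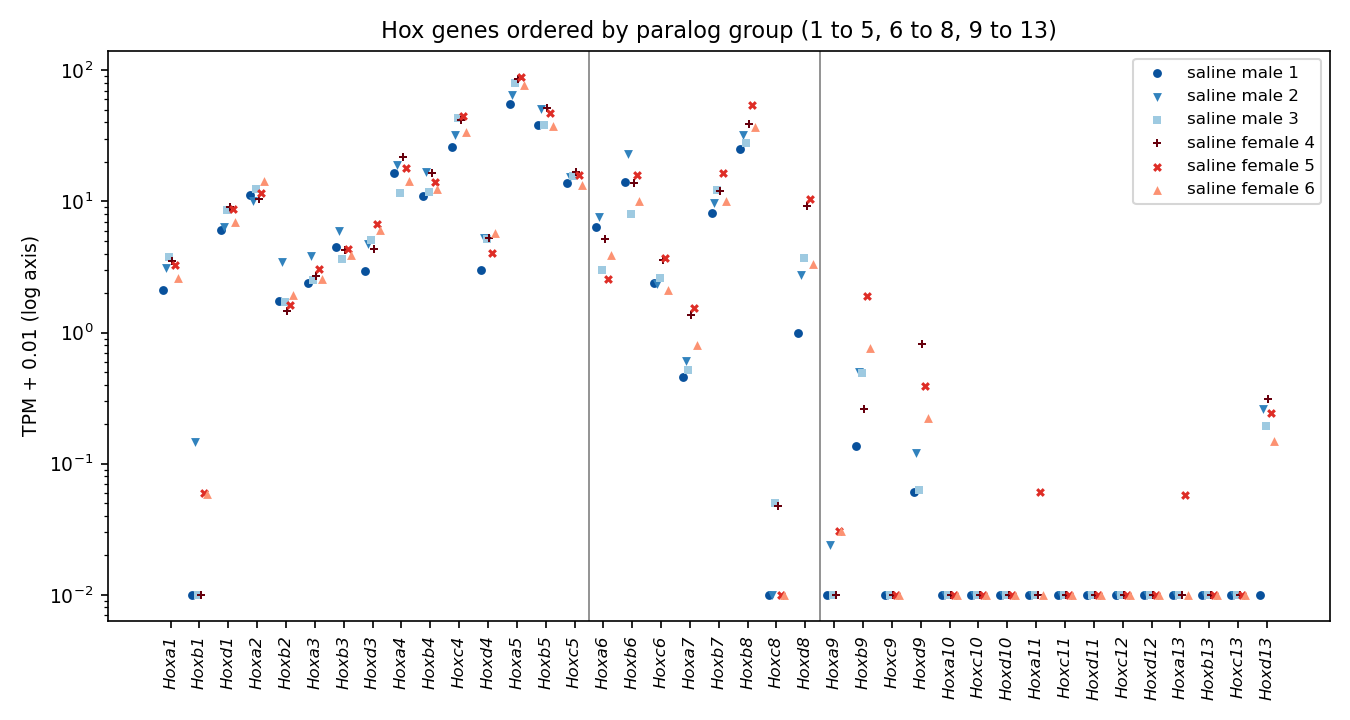
Levels of Hox genes in the 6 saline mice as TPM plus 0.01 on a log axis, ordered by paralog group from 1 to 13, with 1 dot per mouse. Levels fall steeply after paralog group 8, where most genes had 3 counts or fewer in every mouse.

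At the rostral side, *En1*, *En2*, and *Gbx2*, which mark the midbrain-hindbrain junction and rostral pons, summed to 7.01 ± 0.221 CPM, with a CV of 3.15% as counted and 27.6% after the offsets. Of 9 forebrain genes, *Neurod6* was at 9.37 ± 1.91 CPM and *Lhx2* at 1.14 ± 0.253 CPM, and the other 7, with *Emx1* and *Dlx1* among them, stayed at or under 0.293 CPM in every mouse. Of 6 hypothalamic genes, *Agrp* was at 0.520 ± 0.195 CPM, *Nkx2-1* was at 0 counts in all mice, and *Avp*, *Oxt*, and *Hcrt* were at or under 0.0856 CPM. Genes of sensory ganglia were near 0 apart from *Trpm8* (3.90 ± 0.469 CPM) and *Avil* (0.733 ± 0.216 CPM), since *Scn10a*, *Trpv1*, and *Mrgprd* stayed at or under 0.325 CPM. The inferior olive list, 3 genes of the climbing fiber nucleus of the medulla, summed to 43.5 ± 7.99 CPM, and *Barhl1*, a gene of pontine and other rhombic lip neurons, averaged 3.10 ± 1.34 CPM. Hindbrain markers were thus present under the brainstem label, and the Hox genes of groups 9 to 13, which the thoracic and lumbar spinal cord express, were mostly at or near 0. These Hox genes do not set the medulla apart from the cervical cord, and the part that cervical cord had in the samples was not tested.

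Among the cell type lists, mature oligodendrocyte genes had the highest summed level, 36376 ± 3635 TPM, followed by neuronal genes with 6807 ± 411 TPM and astrocyte genes with 4130 ± 398 TPM. In bulk tissue, fewer cells of a type and less RNA per cell cannot be told apart. The 11 mature oligodendrocyte genes summed to between 41229 CPM in female 6, a median of 49709, and 62673 CPM in male 2, which is 5.08 ± 0.797% of counts. *Mbp* and *Mag*, a myelin adhesion protein, varied most among them, with CVs of 50.3% and 44.9%. After the offsets these were 45.7% and 12.1%. *Mog*, a late myelin surface protein, ranged only from 856 to 1109 CPM and *Cldn11*, the myelin tight junction protein, from 1176 to 1452 CPM. The 8 genes of oligodendrocyte precursors and newly formed oligodendrocytes summed to 1581 ± 154 CPM, led by *Bcas1* at 577 ± 45.2 CPM and *Gpr17* at 419 ± 83.8 CPM, both of which mark cells that are differentiating. *Pdgfra*, of dividing precursors, averaged 122 ± 10.6 CPM. The 6 proliferation genes summed to 16.2 CPM in male 1 through 20.9 to 28.7 CPM in male 3, with *Mki67* at 7.82 ± 2.10 CPM.

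The 10 neuronal genes summed to between 8393 in male 2, a median of 8868, and 10645 CPM in male 3. *Snap25* had the highest mean of the list, at 2140 ± 233 CPM. Of the neurofilament genes of large axons, *Nefm* was at 1804 ± 245, *Nefl* at 1521 ± 248, and *Nefh* at 745 ± 61.9 CPM. *Tubb3*, a neuronal tubulin of high GC content, ranged from 153 in male 3 to 577 CPM in male 2, against the direction of the sum. For 3 neuronal genes the offsets widened the spread instead: the CV went from 13.6% to 42.0% for *Nefm*, from 8.31% to 31.9% for *Nefh*, and from 11.8% to 39.4% for *Syn1*, which carries synaptic vesicles. The offsets did not narrow every GC-rich gene.

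Astrocyte genes had the steadiest sum of the cell type lists as counted, at 7459 ± 185 CPM, with a range from 7117 to 7600 CPM. Within the list the members moved against each other: *Gfap*, the astrocytic intermediate filament, ranged from 431 in male 3 to 845 CPM in male 2, and *Aqp4*, the water channel of astrocyte endfeet, from 673 in male 1 to 1093 CPM in male 3. After the offsets the CVs of these genes were 12.3% and 5.13%, and that of the sum rose from 2.48% to 6.10%, above the 2.82% of the endothelial, 4.92% of the mural, and 5.04% of the oligodendrocyte precursor sums. The 10 microglial genes summed to 255 ± 31.3 CPM, with *Csf1r*, the receptor for colony stimulating factor 1, at 49.7 ± 11.9 and *P2ry12*, a purinergic receptor, at 45.9 ± 7.29 CPM. The 9 endothelial genes summed to 415 ± 18.1 CPM and the 8 mural cell genes to 422 ± 22.2 CPM, with *Flt1*, a receptor for VEGF, at 85.4 ± 5.67 CPM and the pericyte gene *Rgs5* at 291 ± 39.5 CPM.

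**Figure D4:**
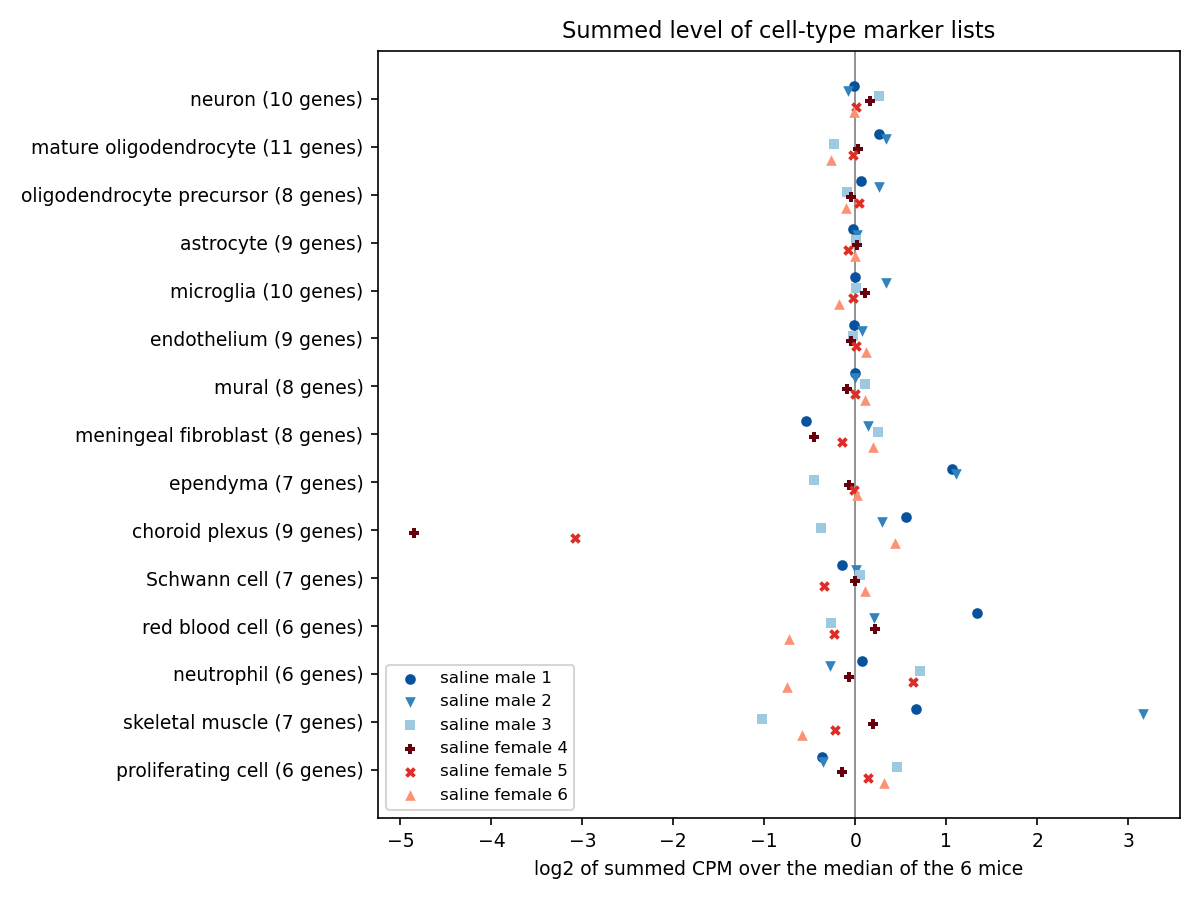
Summed CPM of 15 cell type lists in each of the 6 saline mice, as log2 of the ratio to the list's median over the mice, with 1 dot per mouse. Choroid plexus, skeletal muscle, and red blood cell lists spread far more than the lists of neurons, astrocytes, and endothelium.

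Choroid plexus genes split the mice. The 9 genes of this epithelium, which makes cerebrospinal fluid, summed to 528.7 in male 1, 440.4 in male 2, 276.6 in male 3, and 486.2 CPM in female 6, but to 42.4 CPM in female 5 and 12.5 CPM in female 4. Females 4 and 5 were the 2 lowest mice for each of the 9 genes. *Ttr*, transthyretin, which the choroid plexus secretes, was at 489, 402, 237, and 420 CPM in the first 4 of these mice, at 29.98 CPM in female 5, and at 1.23 CPM in female 4. The CV of the sum was 76.0% as counted and 78.2% after the offsets. Ependymal genes, which line the same ventricle, summed to between 8.45 CPM in male 3, a median of 11.54, and 24.8 CPM in male 2, with males 1 and 2 above the other 4 mice, and their CV fell from 47.5% to 25.3% with the offsets.

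Genes of tissue around the brain set other mice apart. The 7 skeletal muscle genes summed to 32.8 CPM in male 2 and to between 1.80 and 5.80 CPM in the other 5, and male 2 was highest for each of the 7. *Acta1*, skeletal actin, was at 10.8 CPM in male 2 against a median of 0.617 CPM. The 6 red blood cell genes summed to 466 CPM in male 1 and to between 111 and 215 CPM in the others, led by the β-globin gene *Hbb-bs* with 359.6 CPM in male 1 and a median of 142 CPM. Meningeal fibroblast genes ranged from 135 in male 1 to 233 CPM in male 3. The 7 Schwann cell genes summed to 132 ± 14.2 CPM, with periaxin (*Prx*) between 2.12 and 8.52 CPM, and those of neutrophils summed to 11.1 ± 4.18 CPM. The 7 cerebellar granule cell genes summed to 168 ± 25.4 CPM and the 5 Purkinje cell genes to 153 ± 19.6 CPM. Per length, *Zic1* led the first list at 49.8 TPM and *Calb1* the second at 60.3 TPM. *Neurod1* was lower at 7.12 TPM, as was *Ppp1r17* at 5.07 TPM. The granule cell gene *Gabra6* was at 0.767 CPM in female 5, 8.60 CPM in female 6, and between 2.95 and 4.88 CPM in the other 4. *Pcp2*, the lowest of the Purkinje cell list per length, averaged 0.379 ± 0.352 CPM. How much of each neighbouring tissue was in each sample was not tested.

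Spread between mice was lower in genes of higher level, up to 1000 CPM. Over the 15009 genes with a mean of 1 CPM or more, the median CV was 19.0% as counted and 12.1% after the offsets, and the part that counting gives was 3.53%. It fell from 28.0% in genes of 1 to 3 CPM to 14.8% in genes of 100 to 1000 CPM, where counting accounts for 1.28%. The common biological coefficient of variation that edgeR estimated, with sex in the model, was 27.0% as counted and 17.2% with the offsets. A CV over 50% was found for 1293 genes (8.61%), of which 48 exceeded 100%, and a CV under 10% for 2515 genes (16.8%). With the offsets the numbers were 266 and 5916 (39.4%). Pearson's correlation of log2 levels across genes, which are not independent, ran from 0.951 between males 2 and 3 to 0.990 between males 1 and 2.

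Many of the variable genes were ordered as the gradient was. In 16 of the 20 genes with the highest CV, males 1 and 2 lay above all 4 other mice, and this held for 4363 of the 11686 genes of at least 5 CPM, while both males lay below the others in 3673. Of 81 cytosolic ribosomal protein genes, 64 were higher in male 2 than in male 3, with a median log2 difference of 0.82, and of 80 nuclear-encoded oxidative phosphorylation genes 59 were, with a median of 0.70. Among all 18122 genes 8957 were higher, with a median of -0.01. The offsets left medians of 0.65 and 0.44. Genes with the highest CV included *Rpl36* (121%), *Uqcr11* (102%), and *Rplp1* (101%), the last a ribosomal stalk protein that ranged from 15.2 in male 3 through 28.3 to 153 CPM in male 2. After the offsets the CVs of these 3 genes were 97.3%, 75.0%, and 79.6%, so most of their spread remained.

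Male 3 had the largest median absolute deviation from the 6-mouse median, 0.297 on the log2 scale, followed by 0.270 in male 2, with 0.0906 in female 5 as the smallest. Among genes of at least 20 CPM, its largest positive deviations included *Fgf1*, a growth factor, at 268 CPM against 61.4 to 213 CPM, *Tfrc*, the transferrin receptor, at 581 CPM against 270 to 457 CPM, and *Igf1*, insulin-like growth factor 1, at 48.8 CPM against 20.8 to 38.3 CPM. After the offsets, male 3 was at 444 CPM for *Tfrc*, next to 402 CPM in the highest of the other mice, and at 36.2 CPM for *Igf1*, next to 33.6 CPM. The CV of *Tfrc*, a GC-poor gene like *Igf1*, went from 32.2% to 13.3%, whereas that of *Fgf1* went from 54.8% to 50.9%. Its largest negative deviations included *Pisd-ps1*, a pseudogene, at 20.4 CPM against 47.1 to 69.6 CPM, and *Rpl23a*, a ribosomal protein gene, at 7.69 CPM against 9.83 to 62.5 CPM. *Mt3*, a brain metallothionein, was at 31.3 CPM in male 3 and between 38.6 and 215 CPM in the others, and its CV was 80.9% as counted and 46.0% after the offsets. The CVs of *Pisd-ps1* and *Rpl23a* after the offsets were 31.5% and 83.5%, next to 34.5% and 83.3% as counted.

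A few genes had separate levels in different mice, as counted and after the offsets. After the offsets, the mice were split by a gap of 4-fold or more in 7 of 11686 genes, and by 2-fold or more in 79. The levels of single genes that follow are as counted. *Gm15772*, a processed pseudogene, was at 18.4, 9.21, and 10.8 CPM in male 2, male 3, and female 6, and at 0.0879, 0.112, and 0 CPM in male 1, female 4, and female 5. *Ndufs5*, a small subunit of complex I, was at 35.1, 18.2, 11.1, and 13.2 CPM in males 1 to 3 and female 5, and at 1.62 and 1.54 CPM in females 4 and 6. *AI506816* was at 15.3 and 13.5 CPM in females 5 and 6 and between 0.749 and 2.56 CPM in the other 4. *Smyd1*, a muscle methyltransferase gene, was at 15.4 CPM in male 1 and 13.5 CPM in female 6 and between 2.04 and 2.61 CPM elsewhere. *Cwc22*, a splicing factor, was at 38.8, 84.5, 127, 15.7, 145, and 160 CPM in mice 1 to 6. The gap in *1500015O10Rik*, at 0.895 and 1.39 CPM in females 4 and 5 and between 5.07 and 8.76 CPM in the others, had the same split as *Ttr*.

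At the other end, the steadiest genes of at least 50 CPM were *Slc25a51*, a mitochondrial NAD carrier, with a CV of 0.994%, *Ctr9*, a subunit of the PAF1 transcription complex, with 1.009%, *Sec23b*, a coat protein of secretory vesicles, with 1.58%, *Klhl5* with 1.71%, and *Cyfip2*, a regulator of actin at synapses, with 1.86%. With the offsets the CV of *Sec23b* was 15.9% and that of *Ctr9* was 2.82%.

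**Figure D5:**
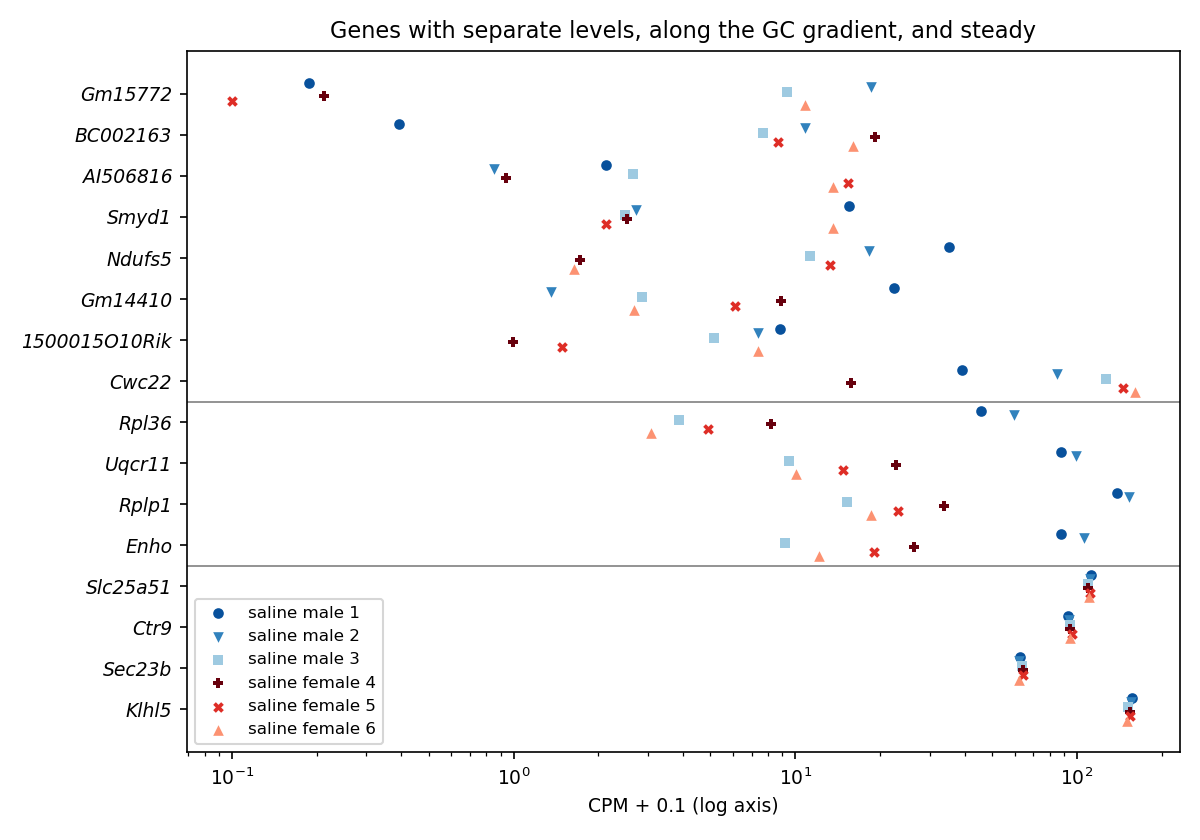
CPM plus 0.1 in each of the 6 saline mice on a log axis for 8 genes with separate levels, 4 genes along the GC gradient, and 4 steady genes, with 1 dot per mouse. *Gm15772* and *Smyd1* split the mice without regard to sex, and *Ctr9* shows no visible spread.

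Sex was the only factor that the labels gave within the saline mice, and 3 females were compared with 3 males over 18122 genes. With edgeR's quasi-likelihood test, 448 genes (2.47%) had an unadjusted p below 0.05 and an absolute log2 fold change over 0.26, of which 101 were higher in females and 347 lower. The same 448 genes passed the p threshold alone. Their share lay below the share of 0.05 that this threshold would give by chance, so the number by itself does not point to sex differences. Only 6 (0.0331%) had an adjusted p below 0.05, and all 6 lie on the X or Y chromosome. *Xist*, the noncoding RNA that silences an X chromosome in females, averaged 764 ± 189 CPM in females and 1.56 ± 1.13 CPM in males (log2 fold change 8.90, SE 0.67, adjusted p = 0.00666). The Y-linked histone demethylase *Kdm5d* averaged 37.2 ± 8.51 CPM in males and 0.190 ± 0.113 CPM in females (log2 fold change -7.59, SE 0.42, adjusted p = 0.00368). *Eif2s3y*, *Ddx3y*, *Gm29650*, and *Uty* were also higher in males, with log2 fold changes of -8.70, -8.60, -8.24, and -8.75. These genes also matched the sex label of every mouse.

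No autosomal gene passed the adjusted threshold in this test. The autosomal gene with the smallest p was *H2-Bl*, a class I histocompatibility gene, at 0.923 ± 0.341 CPM in females and 8.55 ± 3.78 CPM in males, with a log2 fold change of -3.21 (SE 0.46, adjusted p = 0.435). It and *Gm44439* had an adjusted p below 0.05 with edgeR's exactTest and with DESeq2, which called 3 and 4 autosomal genes. The p values measure the spread between these 6 mice, whose dams are not known. Leaving out male 3 raised the first number from 448 to 6966 genes and the second from 6 to 4597. The males then left were the 2 mice at one end of the GC gradient, and with the offsets the numbers without male 3 were 3507 and 1382. Leaving out male 1 or male 2 gave 147 and 124 genes. The number of calls thus depended on which mice were included.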

How the data were processed

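RNA from the P15 brainstem of 6 saline mice was measured as poly-A RNA-seq, 1 library per mouse. Per the authors' methods, reads were trimmed (Trimmomatic), mapped to mm10 (STAR), and assigned to exons gene by gene (featureCounts). The deposited counts are whole numbers with totals from 32887929 to 48097947 and were used as raw counts. Versions, and the settings for strand and for reads that map to several places, are not given in the sources used here. The 6 morphine libraries were not used here.

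Positions, exon lengths, and GC content came from GENCODE M21 (GRCm38) by symbol for all 55418 genes, of which 115 symbols stand for more than 1 gene, and 78 genes had no GC content, none of them among the 18122 tested. CPM used TMM factors of all counts, and TPM the merged exon length. Males and females were compared in edgeR 4.0.16 (R 4.3.3, limma 3.58.1) with glmQLFTest after filterByExpr, and log2 levels had a prior count of 2. The call rule was an unadjusted p under 0.05 together with a log2 fold change beyond 0.26 in either direction, and calls by Benjamini-Hochberg adjusted p are given beside it. Alternatives were edgeR's exactTest, DESeq2 1.42.0, other size factors, other filters, and leaving out each mouse. Loess offsets for GC content and length (span 0.5) and the ribosomal and oxidative phosphorylation gene groups were added after the data were seen. Tested on simulated data of 17832 genes with 3 mice against 3, the fit recovered 16.2% of genes changed by 1 on the log2 scale and 77.8% of those changed by 2 at an adjusted p under 0.05.

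The saline libraries, the gene lists, and the tests were chosen with earlier results of these data known. Named genes are list members, the 20 highest by CPM and by TPM, the 20 with the highest CV (mean of at least 5 CPM) and lowest CV (at least 50 CPM), genes with an adjusted p under 0.05 between the sexes and the 10 called genes of smallest p, and the 10 largest deviations in each direction of a library that stood apart (at least 20 CPM). The genes with gaps between mice, *Cwc22*, *Clgn*, and *Nexn* were named after their values were seen. A floor of 3 counts, 0.0624 to 0.0912 CPM per library, and the counting CV cover counting error only. Python 3.11.15 with numpy 2.4.6 and pandas 2.3.3 was used for the levels. Some genes are not reported here.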

Additional observations from a re-analysis of the deposited data

Results flagged for a closer look

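In 21 of 435 values tested (4.83%), 1 mouse lay far from the other 5 by Dixon's 95% limit for 6 samples, and chance flags about 1 in 20. The total count of saline male 2 was 48097947, above the 5 other libraries. Male 2 was also far above the others for the skeletal muscle list at 32.8 CPM, and for its members *Acta1* (10.8 CPM), *Tnnt3* (7.43 CPM), and *Mylpf* (7.21 CPM), as well as for the smooth muscle actin gene *Acta2* (21.1 CPM), the noncoding RNA *Gm26917* (29.4 CPM), *Hoxb2* (3.25 CPM), and *Hoxa3* (6.25 CPM). Male 1 was far above the others for the red blood cell list at 466 CPM, for the globin genes *Hbb-bs* (359.6 CPM) and *Hbb-bt* (44.9 CPM), for the dopamine transporter gene *Slc6a3* (5.89 CPM), and for *Gm14410* (22.3 CPM, against 1.26 to 8.83 CPM). Male 3 was far above the others for the forebrain list at 14.6 CPM and its member *Neurod6* (13.1 CPM), for the pontine and parabrachial list at 24.2 CPM, and for the meningeal collagen-binding gene *Lum* (12.1 CPM), and far below them for the endothelial adhesion gene *Pecam1* (30.2 CPM, against 35.2 to 37.6 CPM). Female 6 was far above for the histamine receptor gene *Hrh2* (9.27 CPM, against 7.80 to 8.35 CPM) and far below for *Calcb*, a CGRP gene (1.85 CPM, against 3.02 to 3.36 CPM). Apart from the total count, these values are as counted, and after the offsets for GC content and length 11 of the other 20 were still past the limit. The 9 within it were the forebrain list (12.7 CPM in male 3 against up to 12.0 CPM), *Neurod6* (10.7 against up to 10.1 CPM), the pontine and parabrachial list (21.6 against up to 19.8 CPM), *Gm26917* (13.6 CPM in male 2 against up to 8.85 CPM), *Hoxb2* (2.46 against up to 2.06 CPM), *Hoxa3* (5.02 against up to 5.05 CPM), *Lum*, *Pecam1*, and *Hrh2*. Choroid plexus genes are not among these values, because females 4 and 5 were low together.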

How the results depend on the processing

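Of 258 alternatives over 105 results, 202 were scored as the same, 48 as moved, 2 as reversed, and 6 as crossing the threshold. For single genes and levels, the same meant the same call or a value within its spread. For numbers of genes the score was looser. It covered 617 called genes with the offsets against 448, and 9 with exactTest against 6 at an adjusted p under 0.05. The 448 genes called between the sexes became 2047 with no filter, 834 with exactTest, and 907 with DESeq2, and the 6 with an adjusted p under 0.05 became 1 with at least 10 counts in every library and 10 with DESeq2. Leaving out each mouse gave 124 to 6966 and 2 to 4597 genes, and the highest were those without male 3. With the offsets, 617 genes were called, and 284, 244, 3507, 1032, 295, and 401 without mice 1 to 6, of which 6 to 1382 had an adjusted p under 0.05. The median CV of 19.0% was 12.1% with the offsets. Without length, log2 *Slc6a5* over *Slc17a6* was 0.64, and *Gria2* over *Gria4* (0.25) and *Grin2a* over *Grin2b* (-0.19) reversed. The log2 ratio of the highest to the lowest mouse, with the offsets, was 0.54 for neurons, 0.68 for mature oligodendrocytes, and 0.20 for astrocytes. As a mean of log2 levels it was 0.43 for mature oligodendrocytes, 0.56 for astrocytes, and 3.09 for choroid plexus. Leaving out each mouse gave 0.24 to 0.34 for neurons, 0.53 to 0.60 for mature oligodendrocytes, 0.040 to 0.095 for astrocytes, and 3.64 to 5.41 for choroid plexus, lowest without female 4. Apart from length and fewer samples, the cause was not tested. No paired analysis was possible because no label, such as the dam, ties a saline female to a saline male. Depth limits what can be said of genes under 0.0912 CPM.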

Other observations

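Some gene groups of the hindbrain belonged in no comparison. In the dorsal vagal complex list, the GLP-1 receptor gene *Glp1r* averaged 12.4 ± 1.37 CPM and the calcitonin receptor gene *Calcr* 6.78 ± 1.33 CPM, while *Gfral*, the GDF15 receptor of the area postrema, ranged from 0.146 to 0.531 CPM. In the list for the retrotrapezoid nucleus and breathing rhythm, *Tacr1*, the substance P receptor, averaged 14.5 ± 1.73 CPM, *Gpr4*, a proton-sensing receptor, 3.50 ± 0.870 CPM, *Grpr* 1.55 ± 0.377 CPM, and *Nmbr* 1.58 ± 0.368 CPM. Both lists varied little, with CVs of their sums of 9.42% and 7.98%.

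Monoamine breakdown and storage genes were found in every mouse. *Maoa*, the monoamine oxidase of noradrenaline and serotonin, averaged 94.0 ± 16.9 TPM, *Maob* 31.0 ± 4.16 TPM, and *Slc18a2*, the vesicular monoamine transporter, 30.2 ± 6.96 TPM. *Maoa* was highest in male 3 and lowest in male 2, and its CV was 16.8% as counted and 6.54% after the offsets for GC content and length. *Hdc*, the histamine synthesis enzyme, averaged 1.54 ± 0.448 CPM, below its receptor genes *Hrh1* (7.5 ± 0.682 CPM) and *Hrh2* (8.21 ± 0.561 CPM) in mean CPM, which is not divided by length.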
